A study of Mus musculus with 16 samples.

Results

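The matrix metalloproteinases (MMP), the membrane sheddases of the ADAM family, the secreted ADAMTS proteases, their inhibitors and the MMP inducer basigin were examined in cultured mouse airway epithelium. A list of 42 gene symbols was taken, each gene being read from probe sets that carry its symbol alone, with the brightest probe set used where there were several. By this rule 38 of the 42 symbols could be read, out of 18193 genes in all, and Mmp15, Mmp25, Mmp28 and Adamts2 were not analysed here. The values are log2 intensities.

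The 16 cultures were grown from C57BL/6 airway epithelial cells at an air-liquid interface, which lets the cells form a layer with basal, secretory and ciliated cells, and each gave 1 array. They form 4 groups of 4: wild-type uninjured, wild-type with 3 parallel scratches, Mmp7-/- uninjured and Mmp7-/- with the same scratches (called Mmp7-null here). All 16 had been without serum for 24 hours when RNA was taken. The labels do not give the time between scratching and harvest or the animals behind each culture, so p-values measure only the spread between these cultures, which may be technical.

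All 13 airway epithelial markers examined lay above background in every group and none of 8 endothelial markers did. Of the 16 arrays, 3 stood apart from the rest: wild-type scratched 3 and 4 and Mmp7-null scratched 1, which had the highest array median (10.2 in linear units), the widest difference between the 3′ and 5′ actin control probe sets (2.62 log2 units) and the lowest upper quartile (8.08 log2 units), in that order. Spiked-in control RNAs divided the arrays into 3 sets, of which only the Phe set held both genotypes (2 arrays of each Mmp7-null group and replicate 1 of each wild-type group), the Lys set held 4 Mmp7-null arrays and the Trpn set held 6 wild-type arrays. What the sets stand for is not stated, and genotype and set largely overlap.

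MMPs are zinc proteases that are made as inactive precursors and cut matrix, cell-surface proteins and other proteases once their pro-domain is removed. ADAMs sit in the membrane and release the outer parts of growth factors, cytokine receptors and adhesion molecules, and ADAMTS proteases act mainly on proteoglycans and other matrix proteins. TIMPs bind the active sites of these enzymes, and in injured airway epithelium Mmp7, or matrilysin, is known for cutting syndecan-1 and E-cadherin at the wound edge.

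Mmp7, the gene deleted in the null cells, could not be measured by its single probe set in any group. The wild-type uninjured arrays read 2.17, 2.15, 2.16 and 2.15 on the log2 scale and the wild-type scratched arrays 2.15, 2.13, 2.25 and 2.15. The Mmp7-null uninjured arrays read 2.15, 2.17, 2.13 and 2.15 and the Mmp7-null scratched arrays 2.59, 2.19, 2.20 and 2.29. All 16 values lay below the background of 2.85, which is the 95th percentile of the readings of control transcripts that were absent from an array. The wild-type and null values of uninjured cultures overlapped (difference -0.01 ± 0.07 SE, adjusted p = 0.99), so this probe set does not check the genotype labels.

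Of the 38 members, 23 were above background in all 4 groups, 2 in some and 13 in none. Over all 18193 genes, 66.8% had a mean above it. The 13 below background in every group were the gelatinases Mmp2 and Mmp9, the stromelysins Mmp3 and Mmp10, the neutrophil collagenase Mmp8, the macrophage elastase Mmp12, Mmp7, Adam12, Adam19, Adam23, Adam33, Adamts4 and Adamts9. Their values ran from 2.13 to 2.91, and 3 of 208 readings passed the background, one each for Mmp9, Adam12 and Adam19. Of 10 secreted MMPs, 3 passed it in at least 1 group, against all 5 membrane-anchored MMPs, all 5 inhibitors, 7 of 11 ADAMs and 4 of 6 ADAMTS proteases. Among the membrane-anchored MMPs only Mmp14 and Mmp23 had a mean more than 1 log2 unit over background. The brightest probe set was used, and the other probe sets of Mmp16 (means 2.5, 2.32 and 2.27) and Mmp24 (2.38 and 2.32) lay below it.

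**Figure D1:**
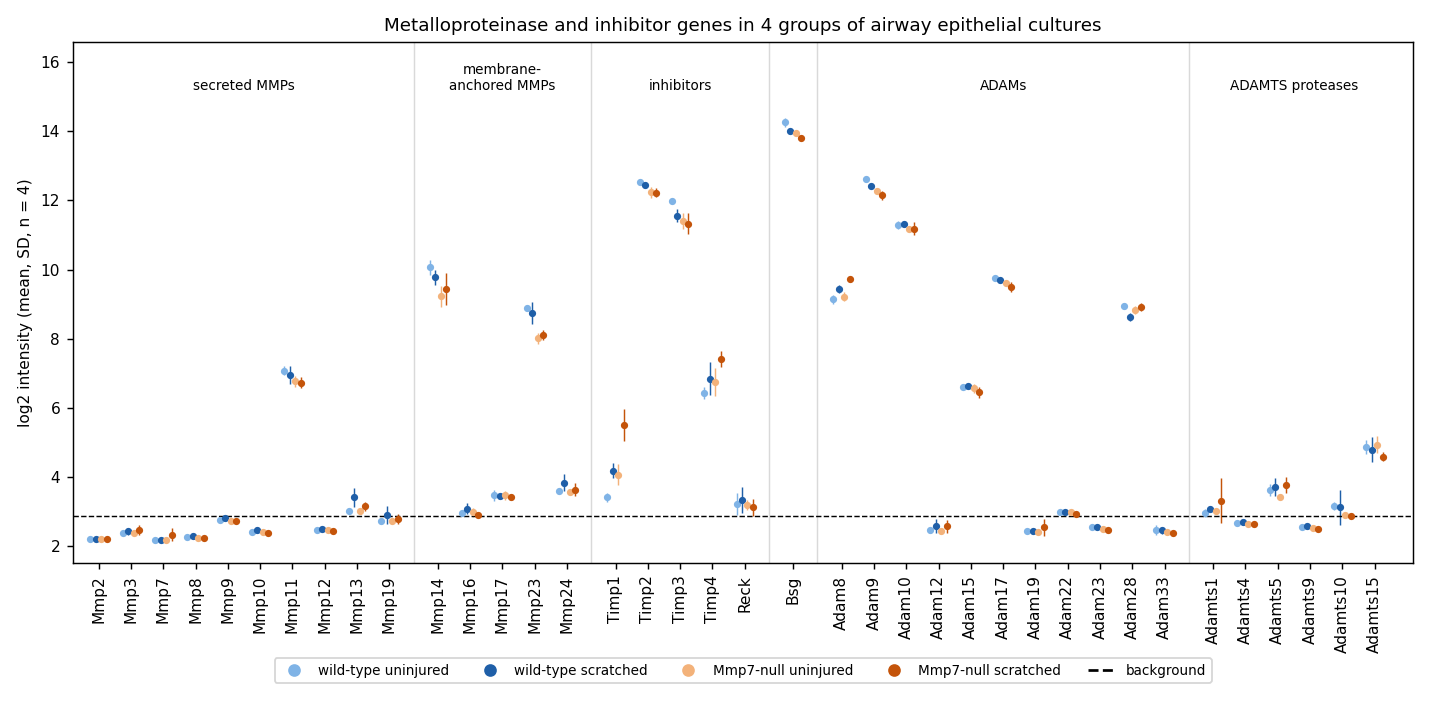
Level of each of the 38 members, grouped by role, with Bsg between the inhibitors and the ADAMs. The vertical axis is log2 intensity, points are the means of 4 arrays per group, bars are SDs and the dashed line is the background of 2.85. A level is comparable between groups of 1 gene, not between genes, since probe sets differ in brightness. Most secreted MMPs lie at or under the line in all 4 groups.

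The mean of 15 members was more than 1 log2 unit over background: Mmp11, Mmp14, Mmp23, Timp1, Timp2, Timp3, Timp4, Bsg, Adam8, Adam9, Adam10, Adam15, Adam17, Adam28 and Adamts15. Several others passed the line by little and with little spread, so their level cannot be told from the background of their own probes. Adam22, an ADAM without protease activity, had group means from 2.93 to 2.99, and Mmp16, a membrane-type MMP, from 2.88 to 3.07. Mmp19 passed only in wild-type scratched cultures (2.89 ± 0.26 SD, n = 4), where 3.26 on array 4 and 2.87 on array 3 were over the line. Adamts10 passed in 3 groups and had a mean of 2.85 ± 0.02 in scratched Mmp7-null cultures, just under the line before rounding.

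The 6 members Mmp13, Mmp12, Mmp3, Mmp10, Mmp8 and Mmp7 lie in 1 row of 10 neighbouring protein-coding genes on chromosome 9, all of them MMP genes. Of the 9 with a probe set here, only Mmp13, a collagenase, was above background, and the other 5 members were below it in every group. The stretch before the start of some of these genes is shown so that it can be read beside that of members with clear expression. For 24 of the 38 members RefSeq's promoter table (build GRCm38.p6) holds a window, and the 250 bases before the start were searched on both strands for TGANTCA, the core bound by AP-1, for TATAAA and for GGGCGG, the GC box. TGANTCA reads the same on both strands apart from its middle base, and in the stretches printed no match overlaps another. Below, the last 100 bases before the start are printed 5′ to 3′ on the gene's strand, with each match in capitals; a GC box on the other strand reads CCGCCC. The stretches are chr9:7691990-7692089, plus strand for the first of 2 windows of Mmp7, chr9:7445722-7445821, plus strand for Mmp3, chr9:7502242-7502341, plus strand for Mmp10, chr9:7272414-7272513, plus strand for Mmp13, chrX:20870066-20870165, plus strand for Timp1, chr7:139992563-139992662, minus strand for Adam8 and chr14:54431498-54431597, plus strand for Mmp14.
Mmp7: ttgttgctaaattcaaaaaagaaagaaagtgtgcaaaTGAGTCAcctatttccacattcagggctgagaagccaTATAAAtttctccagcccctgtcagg
Mmp3: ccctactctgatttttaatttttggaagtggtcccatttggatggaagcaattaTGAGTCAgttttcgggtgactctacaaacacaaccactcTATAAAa
Mmp10: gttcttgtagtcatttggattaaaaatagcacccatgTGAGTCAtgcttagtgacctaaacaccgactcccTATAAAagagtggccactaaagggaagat
Mmp13: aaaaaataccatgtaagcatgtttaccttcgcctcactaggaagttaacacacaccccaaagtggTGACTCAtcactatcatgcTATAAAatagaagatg
Timp1: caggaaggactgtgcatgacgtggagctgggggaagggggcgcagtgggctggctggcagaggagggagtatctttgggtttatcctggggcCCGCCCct
Adam8: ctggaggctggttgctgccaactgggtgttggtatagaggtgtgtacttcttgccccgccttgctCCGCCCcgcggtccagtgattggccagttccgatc
Mmp14: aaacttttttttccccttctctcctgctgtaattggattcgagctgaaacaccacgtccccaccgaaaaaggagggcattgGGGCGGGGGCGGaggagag

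TGANTCA was found in 6 of the 24 members, namely Mmp3, Mmp7, Mmp10, Mmp12, Mmp13 and Adam19, and, over its 27025 genes, the table holds it for 7.82%; a gene is counted once, with a match in any of its windows. It stood in 5 of the 8 members below background and in 1 of the 16 above it, which is Mmp13. All 6 but Adam19 lie in the chromosome 9 row, so they are neighbouring genes of one family and not separate cases. GGGCGG stood in 12 of the 16 above background, among them Timp1, Timp2, Timp3, Adam8, Adam17 and Mmp14, and in 1 of the 8 below, against 35.4% of all genes. TATAAA stood in 5 of the 24, Mmp3, Mmp7, Mmp10, Mmp13 and Adamts1, against 14.3% of all genes. Counted by window, TGANTCA stood in 6.75%, GGGCGG in 32.7% and TATAAA in 12.4% of 32851. Every stretch printed above holds a match. Mmp8 of the chromosome 9 row, and Mmp23 and Timp4, both clearly above background, had no match to any of these motifs and are not printed. The shares over all genes were not split into genes above and below background. These are matches of letters in a window and not measured sites.

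In all 5 comparisons were tested. Scratched cultures were set against uninjured ones within each genotype, the genotypes were compared within uninjured and within scratched cultures, and the scratch response of Mmp7-null cultures was set against that of wild-type ones. A member is said to have changed where limma's adjusted p over all 18193 genes was under 0.05. In 17 pairs of member and comparison, made up of 10 members, a change was called, and all 10 were above background in all groups. The other 28 members were called in none of the 5 on all arrays. Some of them were called under an alternative. Adamts10, a protease that binds fibrillin, differed by -0.03 with scratching in wild-type cultures on all arrays and by -0.28 without wild-type scratched 3 (adjusted p = 0.0072), where it was also lower between genotypes in uninjured cultures (-0.26, adjusted p = 0.0073). Without the 3 arrays that stood apart these were -0.29 (adjusted p = 0.024) and -0.26 (adjusted p = 0.013). Adamts10 read 2.86, 2.83 and 2.88 on wild-type scratched 1, 2 and 4, which is at the background of 2.85. Its other probe set, with a mean of 2.06, differed by 0.03 and 0 in these comparisons on all arrays. Adam15 was lower between scratched genotypes with array weights (-0.26, adjusted p = 0.037).

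Scratching raised Timp1 and lowered Adam28 and Bsg in wild-type cultures, so 1 of 38 members rose and 2 fell. Among all genes 2.55% rose and 2.3% fell. In Mmp7-null cultures 2 of 38 rose, Timp1 and Adam8, and none fell, against 2.27% and 2.45% of all genes. The 4 arrays of one group lay wholly above or below the 4 of the other for 7 members after scratching in wild-type and for 7 in Mmp7-null cultures, which compares with 10.0% and 12.8% of all genes. The 7 in Mmp7-null cultures included Mmp7, which was below background on every array. The median member moved by 0.016 and -0.015 log2 units in the 2 genotypes, against 0.008 and -0.020 for all genes, so most members showed little difference either way. Within the spike-in sets the 3 wild-type calls were all lost: the differences of Adam28, Bsg and Timp1 were -0.32, -0.25 and 0.89 in the Trpn set (adjusted p = 0.14, 0.17 and 0.13) and -0.31, -0.25 and 0.46 in the Phe set (adjusted p = 0.72, 0.73 and 0.99).

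Between genotypes, 6 members were lower in uninjured Mmp7-null than in uninjured wild-type cultures and none was higher: Mmp23, Mmp14, Timp3, Adam9, Bsg and Timp2. Among all genes 2.5% were lower and 2.3% higher. In scratched cultures 3 were lower in Mmp7-null, Mmp23, Adam9 and Adam17, and 3 higher, Timp1, Adam8 and Adam28, against 2.92% and 3.29% of all genes. The groups did not overlap for 9 members in uninjured and 14 in scratched cultures, beside 11.7% and 32.7% of all genes, so separation of the scratched groups by genotype was common across the array. The 14 included Mmp8, Mmp9, Mmp10, Adam23, Adam33 and Adamts9, which lay below background in every group and differed by only -0.07 to -0.09. Each group serves in 2 of these 4 comparisons, so the counts are not independent. Fitting only the 8 arrays of a comparison ended 9 of the 17 calls: Adam28 and Bsg for scratch in wild-type (adjusted p = 0.053 and 0.12), Bsg and Timp2 for genotype in uninjured (0.064 and 0.088), and Adam17, Adam28, Adam8, Adam9 and Mmp23 for genotype in scratched cultures (0.23, 0.12, 0.073, 0.08 and 0.083).

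No member was called for a difference between the scratch responses, where 0.132% of all genes were. By limma 2 members had an unadjusted p under 0.05, Adam28 and Timp1, and with array weights Adam28 alone was called. A change called in 1 genotype and not in the other is therefore not shown to differ between them.

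The genotype differences depend on how the spike-in sets are handled. With the set as a block in the model, the count of members called fell from 6 to 0 in uninjured and from 6 to 2 in scratched cultures, where Timp1 kept its call and Mmp16, lower by 0.37, was added (adjusted p = 0.042). Within the Phe set, which has 1 wild-type array per state and takes its spread from the other groups, 0 members were called in both. All 12 genotype differences called on all arrays kept their sign under both treatments, and their sizes are given gene by gene below.

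Markers of the epithelial cell types moved in the same comparisons. Of the 13 markers 3 rose and 2 fell with scratching in wild-type cultures and 3 rose and 1 fell in Mmp7-null cultures. Muc5b, a secretory mucin, rose by 3.26 and 2.64 log2 units (adjusted p = 0.00097 and 0.0068). Krt5, a basal cell keratin, fell by 0.80 and 0.45 (adjusted p = 0.00015 and 0.015). The other secretory markers, Scgb1a1, Scgb3a2, Bpifa1 and Cyp2f2, were not called with scratching in either genotype. Wild-type means, uninjured and scratched, were 8.61 and 8.2 for Scgb1a1, 14.04 and 13.91 for Scgb3a2 and 15.6 and 15.46 for Bpifa1. For Cyp2f2 they were 15.44 and 15.53. In Mmp7-null cultures the scratched mean was lower for Scgb1a1 and Bpifa1 and higher for Scgb3a2 and Cyp2f2. Between genotypes 1 of the 13 was higher and 2 were lower in uninjured and 2 were higher and 0 lower in scratched Mmp7-null cultures. Foxj1, the regulator of ciliated cells, was higher in Mmp7-null cultures by 0.52 uninjured (adjusted p = 0.023; 0.73 with the spike-in block, adjusted p = 0.07) and by 0.93 scratched (adjusted p = 0.0005; 1.14 with the block, adjusted p = 0.0081). Krt5 and Cdh1 were lower in uninjured Mmp7-null cultures (-0.36 and -0.23, adjusted p = 0.041 and 0.014), whereas Krt14, a basal keratin like Krt5, was higher in scratched ones (0.53, adjusted p = 0.049), and none of these held with the block (adjusted p = 0.39, 0.29 and 0.46). The array mean of the list ran from 11.25 to 11.78 over all groups. The part of cell type makeup in the members' differences was not tested.

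**Figure D2:**
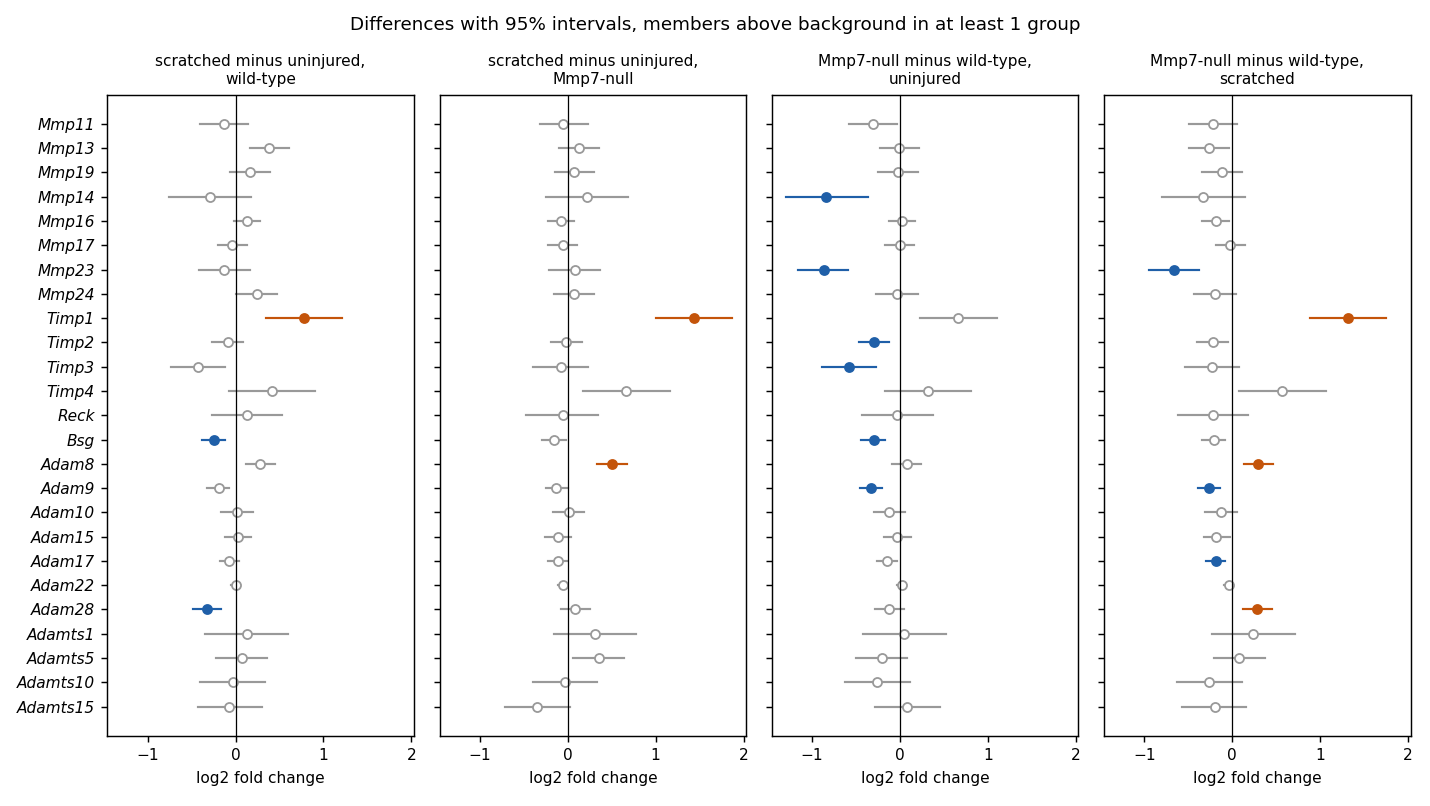
Log2 fold change with its 95% interval for the 25 members above background in at least 1 group, in each of the 4 comparisons; n = 4 arrays per group. Filled orange points are members that rose, filled blue points members that fell, and open grey points members not called by limma at an adjusted p of 0.05. Timp1 stands farthest to the right in both scratch comparisons, and Mmp23 and Mmp14 farthest to the left between genotypes in uninjured cultures.

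Timp1, a secreted inhibitor of most MMPs, showed the largest difference of any member. Uninjured wild-type arrays read 3.48, 3.20, 3.48 and 3.43 and scratched wild-type arrays 3.94, 4.43, 4.25 and 4.09. Uninjured Mmp7-null arrays read 3.89, 3.91, 3.95 and 4.50 and scratched Mmp7-null arrays 5.83, 4.96, 5.93 and 5.26. The scratched arrays lay above the uninjured ones in both genotypes without overlap, and every scratched Mmp7-null array lay above all 12 others.

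Timp1 rose by 0.78 ± 0.20 (SE) log2 units with scratching in wild-type cultures, a 1.72-fold change (adjusted p = 0.041), and by 1.44 ± 0.20, a 2.70-fold change, in Mmp7-null cultures (adjusted p = 0.0012). The wild-type call was lost with the spike-in block (0.78, adjusted p = 0.07), without the 3 arrays that stood apart (0.79, adjusted p = 0.14), and in 9 of the 16 fits that left out 1 array: each uninjured wild-type array, wild-type scratched 2 to 4, and Mmp7-null uninjured 2 or 3 (adjusted p up to 0.12). Repeated quantile normalization also ended it (0.76, adjusted p = 0.059). The Mmp7-null call was kept in all 16 such fits, with the block, without the 3 arrays (1.32, adjusted p = 0.0097) and within the Lys set (1.65, adjusted p = 0.036), and it was lost within the Phe set (1.22, adjusted p = 0.19). The response was larger by 0.66 ± 0.29 in Mmp7-null cultures, which was not called (adjusted p = 0.6, 95% interval 0.04 to 1.27).

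Between genotypes, Timp1 in scratched cultures was higher in Mmp7-null by 1.32 ± 0.20, or 2.49-fold (adjusted p = 0.0015), by 1.46 with the spike-in block (adjusted p = 0.042) and by 1.51 within the Phe set (adjusted p = 0.11). In uninjured cultures it differed by 0.66 ± 0.20 without passing the test (adjusted p = 0.084), although the groups did not overlap.

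Dcn and Acta2 were the only mesenchymal markers called in any comparison. Of the 12 fibroblast markers 1, Dcn, rose with scratching in each genotype and was higher in uninjured Mmp7-null cultures. Between the scratched genotypes 0 were called, and the 12 had a median difference of -0.007, Mmp7-null minus wild-type. For the 5 with a mean above background the median was 0.648. Col3a1 is among these 5 only through its level in scratched Mmp7-null cultures, so this median is partly fixed by the choice of genes. Of the 6 smooth muscle markers 1, Acta2, was called for scratch in wild-type and for genotype in each state, and 0 for scratch in Mmp7-null cultures. Of 12 fibroblast markers 4 were above background in both wild-type groups and in uninjured Mmp7-null cultures and 5 in scratched Mmp7-null cultures, and the mean of the list over an array ran from 2.72 to 2.82, 2.91 to 3.01, 2.81 to 3.01 and 2.95 to 3.35 in wild-type uninjured, wild-type scratched, null uninjured and null scratched cultures. Dcn, the matrix proteoglycan decorin, rose with scratching by 1.58 in wild-type (adjusted p = 0.00031) and 1.23 in Mmp7-null cultures (adjusted p = 0.0036). Between genotypes it was higher in uninjured Mmp7-null cultures by 1.00 (adjusted p = 0.011; 0.98 with the spike-in block, adjusted p = 0.25). Its group means were 4.40, 5.98, 5.39 and 6.63 in the same order. Of 6 smooth muscle markers 4 were above background in every group, with list means over an array of 3.28 to 3.48, 3.51 to 3.90, 3.52 to 3.78 and 3.67 to 4.03. Acta2, smooth muscle actin, was higher in Mmp7-null cultures by 1.37 uninjured (adjusted p = 0.0082) and 1.10 scratched (adjusted p = 0.023), and neither held with the spike-in block (adjusted p = 0.18 and 0.24). Acta2 rose by 1.07 with scratching in wild-type cultures (adjusted p = 0.032, and 0.052 with the block). Without the 3 arrays that stood apart this was 0.9 (adjusted p = 0.14), and the scratched genotype difference was 1.16 (adjusted p = 0.076). Col1a1, Col1a2, Lum, Thy1 and Pdgfrb were below background in every group, and Col3a1 only passed it in scratched Mmp7-null cultures, at 3.73. Postn (3.06, 3.11, 3.48 and 3.98) and the smooth muscle marker Tagln (3.5, 3.77, 3.82 and 4.27) passed it in every group, in the same order. Pdgfra and Fbln2, at 2.87 to 2.98, also passed it in every group, as did the smooth muscle markers Myh11 and Des. The part of these markers in the Timp1 result was not tested, and in such whole cultures fewer cells of a type and less RNA per cell cannot be told apart.

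Timp3, the inhibitor that binds to matrix and blocks ADAM17 as well as MMPs, was lower in uninjured Mmp7-null cultures. Uninjured wild-type arrays read 11.96, 12.03, 11.98 and 11.99, and uninjured Mmp7-null arrays 11.09, 11.42, 11.46 and 11.67. Scratched arrays read 11.69, 11.69, 11.56 and 11.29 in wild-type and 10.91, 11.30, 11.61 and 11.49 in Mmp7-null cultures. The uninjured wild-type arrays were tightly grouped above all 12 others, while the other groups overlapped.

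The uninjured genotype difference in Timp3 was -0.58 ± 0.14 (adjusted p = 0.035), with -0.49 under the spike-in block (adjusted p = 0.4) and -0.39 within the Phe set (adjusted p = 0.89). It missed the threshold without any 1 uninjured wild-type array and without Mmp7-null uninjured 1, 2 or 3 (adjusted p up to 0.12). In scratched wild-type cultures Timp3 differed from uninjured ones by -0.43 ± 0.14 (adjusted p = 0.12). The 4 probe sets of Timp3 all read lower in uninjured Mmp7-null cultures, by 0.52 to 0.73 log2 units, and their average differed by -0.60, short of the threshold (adjusted p = 0.068).

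Timp2, which blocks MMPs and also helps Mmp14 to activate pro-Mmp2, was lower in uninjured Mmp7-null cultures by less. Uninjured arrays read 12.54, 12.49, 12.48 and 12.65 in wild-type and 12.06, 12.43, 12.19 and 12.29 in Mmp7-null cultures. Scratched arrays read 12.35, 12.45, 12.46 and 12.53 in wild-type and 12.06, 12.22, 12.39 and 12.23 in Mmp7-null cultures. The uninjured genotypes did not overlap and the scratched ones did. The difference of -0.30 ± 0.08 had an adjusted p of 0.048, and it was -0.21 with the spike-in block (adjusted p = 0.7) and -0.30 within the Phe set (adjusted p = 0.83). When all 6 probe sets of Timp2 were averaged it was -0.20 (adjusted p = 0.5). Only 4 of the 16 fits that left out 1 array kept the call, namely those without wild-type scratched 4, without Mmp7-null uninjured 2, and without scratched arrays 1 or 3 of Mmp7-null (adjusted p of the others up to 0.16).

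Timp4 and Reck completed the inhibitors, with no call. Timp4 had means of 6.42 ± 0.16, 6.83 ± 0.48, 6.74 ± 0.39 and 7.41 ± 0.24 (SD, n = 4) in wild-type uninjured, wild-type scratched, null uninjured and null scratched cultures. Its difference with scratching in Mmp7-null cultures, 0.66 ± 0.23, did not pass (adjusted p = 0.13); it was called with array weights (0.79, adjusted p = 0.03) and after centring each array (0.66, adjusted p = 0.05, just under the threshold before rounding). Between scratched genotypes it differed by 0.57 ± 0.23 (adjusted p = 0.17) and was called without wild-type scratched 4 (0.80, adjusted p = 0.027). Reck, a membrane-anchored inhibitor, stayed close to background with group means from 3.11 to 3.33.

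Bsg, basigin, a membrane glycoprotein known for inducing MMPs in neighbouring cells, was highest in uninjured wild-type cultures. Those arrays read 14.23, 14.12, 14.28 and 14.44, and scratched wild-type arrays 13.98, 14.11, 14.02 and 13.97. Uninjured Mmp7-null arrays read 13.88, 13.93, 14.08 and 13.97 and scratched Mmp7-null arrays 13.75, 13.84, 13.78 and 13.86. Scratched lay under uninjured arrays in both genotypes, and null under wild-type in both states, in each case without overlap.

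Bsg fell by 0.25 ± 0.06 with scratching in wild-type cultures (adjusted p = 0.033); in Mmp7-null cultures the difference was -0.16 ± 0.06 (adjusted p = 0.19). The wild-type call was lost without the 3 arrays that stood apart (-0.22, adjusted p = 0.19) and without wild-type uninjured 1, 3 or 4 or wild-type scratched 1, 3 or 4 (adjusted p up to 0.083). Centring each array on its median also ended it (-0.23, adjusted p = 0.17). Between genotypes it was lower in uninjured Mmp7-null cultures by 0.30 ± 0.06 (difference -0.30, adjusted p = 0.011), with -0.24 under the spike-in block (adjusted p = 0.39) and -0.21 within the Phe set (adjusted p = 0.89).

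Mmp14, the membrane-type protease that cuts collagen at the cell surface and activates pro-Mmp2, was lower in uninjured Mmp7-null cultures. Uninjured arrays read 10.30, 9.84, 9.89 and 10.21 in wild-type and 8.96, 9.08, 9.67 and 9.19 in Mmp7-null cultures. Scratched arrays read 9.61, 9.99, 9.54 and 9.93 in wild-type and 9.56, 9.36, 9.98 and 8.85 in Mmp7-null cultures. The uninjured groups were apart, and the scratched groups overlapped with a wide spread in Mmp7-null cultures.

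The uninjured difference in Mmp14 was -0.84 ± 0.22, or 1.78-fold (adjusted p = 0.043). It was -0.66 with the spike-in block (adjusted p = 0.47), -0.87 within the Phe set (adjusted p = 0.63) and -0.84 without the 3 arrays that stood apart (adjusted p = 0.063). The call held in 5 of the 16 fits without 1 array, those without wild-type scratched 4, Mmp7-null uninjured 3, or Mmp7-null scratched 1, 3 or 4, and the adjusted p reached 0.14 in the others. In scratched cultures the difference was -0.33 ± 0.22 (adjusted p = 0.33). All 3 probe sets of Mmp14 were lower in uninjured Mmp7-null cultures, by 0.55 to 0.94 log2 units.

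Mmp23, a short MMP held in the membrane by its amino-terminal end and released by cutting, was lower in Mmp7-null cultures in both states. Uninjured arrays read 8.99, 8.79, 8.83 and 8.92 in wild-type and 7.85, 7.91, 8.08 and 8.20 in Mmp7-null cultures. Scratched arrays read 8.38, 8.66, 8.84 and 9.14 in wild-type and 8.20, 7.88, 8.15 and 8.13 in Mmp7-null cultures. Every Mmp7-null array lay under every wild-type array, and scratched and uninjured arrays overlapped in both genotypes.

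The uninjured difference in Mmp23 was -0.87 ± 0.13, or 1.83-fold (adjusted p = 0.002), and the scratched difference -0.66 ± 0.13, or 1.58-fold (adjusted p = 0.0087). Both calls were kept in all 16 fits that left out 1 array. With the spike-in block the differences were -0.71 (adjusted p = 0.16) and -0.50 (adjusted p = 0.29), within the Phe set -0.85 and -0.37 (adjusted p = 0.13 and 0.54), and the scratched one was -0.46 without the 3 arrays that stood apart (adjusted p = 0.068). The second probe set of Mmp23 gave -0.82 and -0.78.

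The remaining MMPs were not called. Mmp11, a stromelysin that is activated inside the cell, had group means from 6.72 to 7.07. Mmp13 read 3.09, 3.05, 3.01 and 2.92 in uninjured and 3.41, 3.29, 3.13 and 3.76 in scratched wild-type arrays, which did not overlap, with a difference of 0.38 ± 0.10 just short of the threshold (adjusted p = 0.056); in Mmp7-null cultures it differed by 0.13 ± 0.10 (adjusted p = 0.66). Centring each array on its median (0.40, adjusted p = 0.012) and leaving out the 3 arrays that stood apart (0.33, adjusted p = 0.036) both put Mmp13 past it. Mmp17 and Mmp24, membrane-anchored MMPs, had group means from 3.41 to 3.46 and from 3.55 to 3.82.

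**Figure D3:**
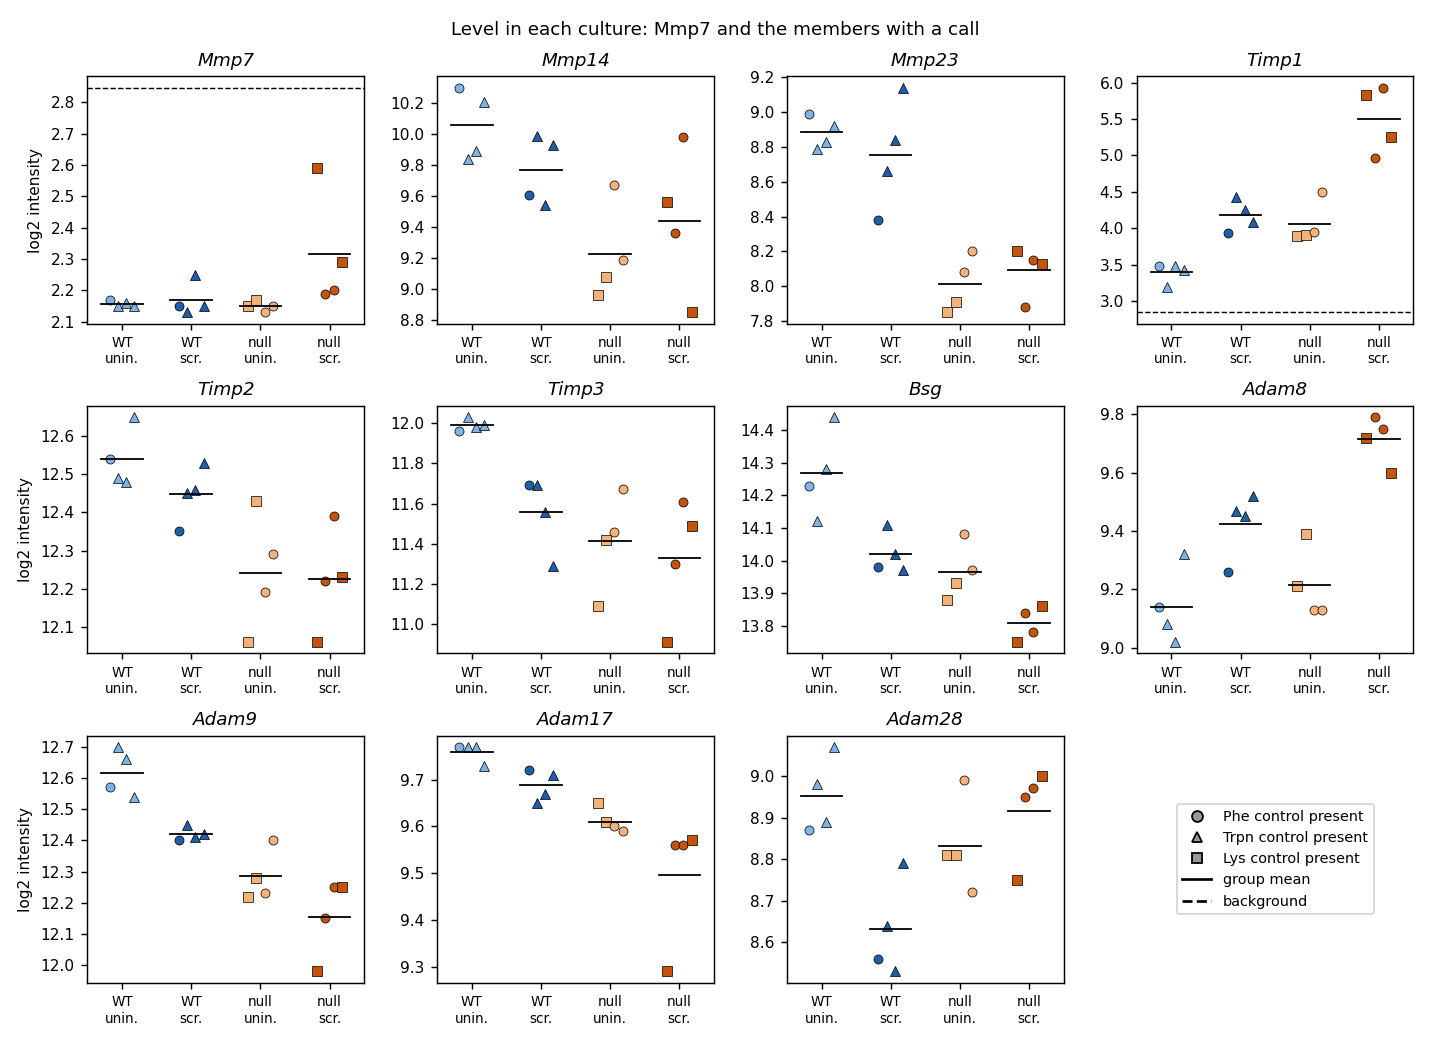
Log2 intensity in each of the 16 cultures for Mmp7 and the 10 members with a call. Each panel has its own vertical scale, points are arrays (WT, wild-type; null, Mmp7-null; unin., uninjured; scr., scratched), bars are group means and symbols mark the spike-in set. Mmp7 lies below the background of 2.85 on every array, and the 8 Mmp7-null arrays of Mmp23 lie under the 8 wild-type arrays.

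Adam8, a membrane sheddase first known from leukocytes, rose with scratching in Mmp7-null cultures. Uninjured Mmp7-null arrays read 9.21, 9.39, 9.13 and 9.13 and scratched ones 9.72, 9.79, 9.75 and 9.60. Uninjured wild-type arrays read 9.14, 9.08, 9.02 and 9.32 and scratched ones 9.26, 9.47, 9.45 and 9.52. All 4 scratched Mmp7-null arrays lay above the other 12, and the wild-type groups overlapped at 1 array of each.

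Adam8 rose by 0.50 ± 0.08, or 1.41-fold, in Mmp7-null cultures (adjusted p = 0.0024), and this call was kept in all 16 fits without 1 array, with the spike-in block (adjusted p = 0.0054) and without the 3 arrays that stood apart (adjusted p = 0.011). It was kept within the Phe set (0.64, adjusted p = 0.023) and lost within the Lys set (0.36, adjusted p = 0.1). In wild-type cultures the difference was 0.28 ± 0.08 (adjusted p = 0.052), and the difference between the responses was 0.22 ± 0.11 (adjusted p = 0.67, 95% interval -0.02 to 0.45). Between genotypes it was higher in scratched Mmp7-null cultures by 0.29 ± 0.08 (adjusted p = 0.04). That call was lost with the block (0.36, adjusted p = 0.16), within the Phe set (0.51, adjusted p = 0.077), without the 3 arrays (0.35, adjusted p = 0.11), after centring (0.25, adjusted p = 0.13) and in 9 of 16 fits without 1 array (adjusted p up to 0.11): wild-type uninjured 1 and 2, wild-type scratched 1, 2 and 3, array 1 of uninjured Mmp7-null, and arrays 1, 2 and 3 of scratched Mmp7-null cultures.

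Since Adam8 is also a leukocyte gene, leukocyte markers were read beside it. In every group 6 of 14 were above background, and the list mean over an array ran from 4.31 to 4.37, 4.46 to 4.51, 4.28 to 4.30 and 4.32 to 4.38 in the order given above. Ptprc (CD45), Itgam, Itgax, Fcgr3 and Cd3e were below background in every group, while Lyz2, Cd14 and Cd68, which epithelial cells can express, were well above it. Csf1r (4.03, 4.08, 3.31 and 3.68), Adgre1 (3.04, 3.04, 3.01 and 2.92) and Csf3r (2.97, 2.99, 2.97 and 2.95) were also above it in every group, in the same order. Of the 14, 2 rose with scratching in wild-type cultures, Cd68 by 1.03 (adjusted p = 0.00041) and Cd14 by 0.37 (adjusted p = 0.0015). For scratch in Mmp7-null cultures 0 were called, and the 6 with a mean above background had a median difference of 0.09. Between genotypes 0 were called in uninjured cultures and 1 in scratched cultures: Cd68 was lower in scratched Mmp7-null than in scratched wild-type cultures (difference -0.92, adjusted p = 0.0012; -0.82 with the spike-in block, adjusted p = 0.065). For the difference between the scratch responses 1 of the 14 was called, Cd68, against 0.132% of all genes. It was -1.12, Mmp7-null minus wild-type (adjusted p = 0.043, and 0.069 with the block). The part of these markers in the Adam8 result was not tested.

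Adam28, a sheddase made in membrane-bound and secreted forms, fell with scratching in wild-type cultures. Uninjured wild-type arrays read 8.87, 8.98, 8.89 and 9.07 and scratched ones 8.56, 8.64, 8.53 and 8.79. Uninjured Mmp7-null arrays read 8.81, 8.81, 8.99 and 8.72 and scratched ones 8.75, 8.95, 8.97 and 9.0. The wild-type groups were apart, the Mmp7-null groups overlapped, and the scratched genotypes overlapped at 1 array of each.

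Adam28 fell by 0.32 ± 0.07 in wild-type cultures (adjusted p = 0.025), and the difference in Mmp7-null cultures was 0.08 ± 0.07 (adjusted p = 0.7). The call missed the threshold without wild-type uninjured 2 or 4 or wild-type scratched 1, 2 or 3 (adjusted p up to 0.076) and when all probe sets were averaged (-0.51, adjusted p = 0.22). The difference between the responses, 0.40 ± 0.11, had the smallest p of any member and was not called (adjusted p = 0.22, 95% interval 0.18 to 0.63). In scratched cultures Adam28 was higher in Mmp7-null by 0.28 ± 0.07 (adjusted p = 0.039), by 0.39 with the block (adjusted p = 0.098), by 0.40 within the Phe set (adjusted p = 0.31), by 0.45 with all probe sets averaged (adjusted p = 0.22) and by 0.28 with a trended, robust variance (adjusted p = 0.051). This call held in 7 of 16 fits without 1 array; it was lost without wild-type uninjured 2, wild-type scratched 1, 2 or 3, array 1 or 2 of uninjured Mmp7-null, or array 2, 3 or 4 of scratched Mmp7-null cultures (adjusted p up to 0.1).

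Adam9, a widely expressed sheddase, was lower in Mmp7-null cultures in both states. Uninjured arrays read 12.57, 12.70, 12.66 and 12.54 in wild-type and 12.22, 12.28, 12.23 and 12.40 in Mmp7-null cultures. Scratched arrays read 12.40, 12.45, 12.41 and 12.42 in wild-type and 11.98, 12.15, 12.25 and 12.25 in Mmp7-null cultures. The genotypes did not overlap in either state.

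The differences in Adam9 were -0.33 ± 0.06 in uninjured (adjusted p = 0.0051) and -0.27 ± 0.06 in scratched cultures (adjusted p = 0.015), and both calls were kept in all 16 fits without 1 array. With the block they were -0.26 (adjusted p = 0.26) and -0.20 (adjusted p = 0.36), within the Phe set -0.26 and -0.20 (adjusted p = 0.71 and 0.7), and without the 3 arrays that stood apart the scratched one was -0.21 (adjusted p = 0.095). Scratching gave -0.19 ± 0.06 in wild-type cultures without overlap of the groups, which was not called (adjusted p = 0.081).

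Adam17, the sheddase of tumour necrosis factor and of ligands of the epidermal growth factor receptor, was lower in scratched Mmp7-null cultures. Scratched arrays read 9.72, 9.65, 9.67 and 9.71 in wild-type and 9.29, 9.56, 9.56 and 9.57 in Mmp7-null cultures. Uninjured arrays read 9.77, 9.77, 9.77 and 9.73 in wild-type and 9.65, 9.61, 9.60 and 9.59 in Mmp7-null cultures. The genotypes were apart in both states, and the lowest array was one of the 3 that stood apart.

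The scratched difference in Adam17 was -0.19 ± 0.05 (adjusted p = 0.037), the smallest called for any member. Without the 3 arrays it was -0.12 (adjusted p = 0.034), with the spike-in block -0.19 (adjusted p = 0.31) and within the Phe set -0.15 (adjusted p = 0.71). It missed the threshold without wild-type uninjured 1, without any 1 of the wild-type scratched arrays, and without Mmp7-null uninjured 3 (adjusted p up to 0.08). The 3 probe sets of Adam17 disagreed: in scratched cultures they gave -0.19, -0.18 and 0.08, and with all of them averaged the difference was -0.10 (adjusted p = 0.63). Removing dim genes and a trended, robust variance each ended the call as well (adjusted p = 0.074 and 0.077).

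Of the ADAMs without a call, Adam10, which sheds E-cadherin and Notch, had group means from 11.18 to 11.32, and Adam15 from 6.45 to 6.62. Among the ADAMTS proteases, Adamts15, which cuts aggrecan and versican, had means of 4.58 to 4.93 and Adamts5, an aggrecanase, of 3.41 to 3.76. Adamts5 read 3.48, 3.49, 3.32 and 3.36 in uninjured and 3.69, 3.78, 3.52 and 4.07 in scratched Mmp7-null arrays, apart but not called (0.35 ± 0.13, adjusted p = 0.18). Adamts1, also a protease of aggrecan and versican, was near background on all arrays but Mmp7-null scratched 4, which read 4.27.

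**Figure D4:**
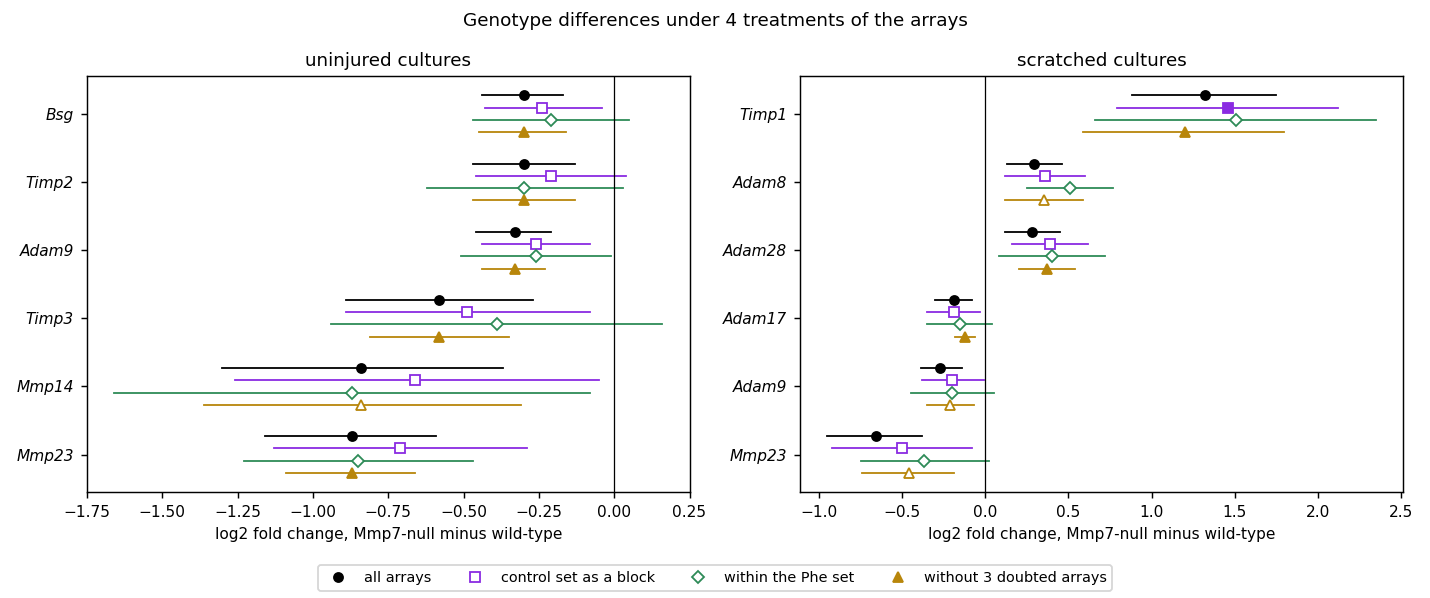
Mmp7-null minus wild-type log2 difference, with 95% intervals, for the members called between genotypes in uninjured (left) and scratched (right) cultures. Black circles use all 16 arrays, purple squares the spike-in set as a block, green diamonds only the Phe set and brown triangles all but the 3 arrays that stood apart; filled symbols have an adjusted p under 0.05. Every point keeps its side of 0, and with the block only Timp1 is filled.

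Genes that act on these enzymes or are acted on by them were read from 5 lists. For these counts, and those of the marker lists above, the shares of all genes were as follows. With scratching 2.55% rose and 2.3% fell in wild-type and 2.27% and 2.45% in Mmp7-null cultures. Between genotypes 2.3% were higher and 2.5% lower in uninjured and 3.29% and 2.92% in scratched Mmp7-null cultures. Of 18 measured genes of pro-enzyme activation and the plasmin system, 1 rose with scratching in wild-type cultures and 2 rose and 1 fell in Mmp7-null cultures; 2 were lower in Mmp7-null cultures in each state and none higher. Serpinb2, the plasminogen activator inhibitor PAI-2, rose by 2.11 ± 0.28 in scratched Mmp7-null cultures (adjusted p = 0.0009), from a mean of 5.78 to 7.89. Plaur, the urokinase receptor, rose by 0.67 ± 0.12 there (adjusted p = 0.0073). Prss8, the membrane-tethered protease prostasin, rose by 0.34 ± 0.08 in wild-type cultures (adjusted p = 0.022) and fell by 0.33 ± 0.08 in Mmp7-null cultures (adjusted p = 0.027), and this difference of -0.67 was called (adjusted p = 0.037), although not without the 3 arrays that stood apart (-0.58, adjusted p = 0.11). Hpn, hepsin, and Plat, tissue plasminogen activator, were lower in uninjured Mmp7-null cultures (differences -0.68 and -0.45, adjusted p = 0.021 and 0.0082), neither with the spike-in block (adjusted p = 0.47 and 0.39). In scratched cultures Prss8 and Hpn were lower (differences -0.73 and -0.55, adjusted p = 0.00016 and 0.049), and Prss8 held with the block (-0.61, adjusted p = 0.02). Without the 3 arrays the scratched Hpn difference was -0.28 (adjusted p = 0.47) and the wild-type rise of Prss8 was 0.25 (adjusted p = 0.18).

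Among 11 regulators of ADAM10 and ADAM17, 1 rose and 1 fell with scratching in wild-type cultures, 2 rose in Mmp7-null cultures, and 1 was lower in Mmp7-null cultures in each state. Tspan14, a tetraspanin that brings ADAM10 to the surface, rose by 0.40 ± 0.06 in wild-type (adjusted p = 0.0024) and by 0.25 ± 0.06 in Mmp7-null cultures (adjusted p = 0.046); the second was lost with the block (adjusted p = 0.078). Tspan33, of the same group, rose by 0.44 ± 0.12 in Mmp7-null cultures (adjusted p = 0.045, and 0.062 with the block). Rhbdf2, iRhom2, which carries ADAM17 to the surface, fell by 0.28 ± 0.07 with scratching in wild-type cultures (adjusted p = 0.046, and 0.057 with the block), and it was lower in uninjured Mmp7-null cultures (difference -0.39 ± 0.07, adjusted p = 0.0082; -0.43 with the block, adjusted p = 0.11). Tspan15 was lower in scratched Mmp7-null cultures (difference -0.41, adjusted p = 0.003; -0.30 with the block, adjusted p = 0.18).

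Of 35 shed substrates, 0 rose and 2 fell with scratching in wild-type cultures and 1 rose and 1 fell in Mmp7-null cultures. Kitl, the membrane-bound ligand of Kit, fell by 0.58 ± 0.08 and 0.65 ± 0.08 in the 2 genotypes (adjusted p = 0.00062 and 0.00054), and Notch1 fell by 0.34 ± 0.07 in wild-type cultures (adjusted p = 0.016). F11r, a junctional adhesion molecule, rose by 0.16 ± 0.04 in Mmp7-null cultures (adjusted p = 0.021). Between genotypes 3 were lower in uninjured Mmp7-null cultures: Notch1 (-0.58, adjusted p = 0.00077), Cdh1, which is E-cadherin (-0.23, adjusted p = 0.014), and F11r (-0.14, adjusted p = 0.034). Of these only Notch1 held with the block (-0.54, adjusted p = 0.044). In scratched cultures Jag1 and Cd44 were higher (0.36 and 0.35, adjusted p = 0.022 and 0.037) and Sdc1, syndecan-1, was lower (-0.23, adjusted p = 0.034), none of them with the block (adjusted p = 0.41, 0.32 and 0.4). Jag1 lost its call without the 3 arrays that stood apart (0.29, adjusted p = 0.24).

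Of 19 extracellular inhibitors, cofactors and clearance receptors, 2 rose with scratching in each genotype. Wfdc1, a secreted protein with a protease-inhibitor fold, rose by 2.47 ± 0.22 in wild-type (adjusted p = 1.2e-05) and by 0.98 ± 0.22 in Mmp7-null cultures (adjusted p = 0.02). Lcn2, lipocalin-2, which binds Mmp9, rose by 0.26 ± 0.05 in both (adjusted p = 0.0044 and 0.0072). Between genotypes 2 were lower in uninjured and 4 in scratched Mmp7-null cultures. Spock2, testican-2, a proteoglycan that modulates membrane-type MMPs, was lower by 1.93 ± 0.25 in both states (differences -1.93 and -1.93, adjusted p = 0.00075 and 0.00048), and -1.87 in both with the block (adjusted p = 0.06 and 0.039). Lrp1, the receptor that clears proteases bound to inhibitors, was lower in uninjured Mmp7-null cultures (-0.63, adjusted p = 0.022; -0.39 with the block, adjusted p = 0.32). Wfdc1 and the matrix protein Sparc were each lower by 0.83 in scratched Mmp7-null cultures (differences -0.83, adjusted p = 0.037 and 0.0034), and not with the block (adjusted p = 0.46 and 0.1).

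Of 36 family genes outside the 42 symbols, 7 had a mean above background. Adamtsl4, an ADAMTS-like protein without a protease domain, fell by 0.67 ± 0.10 with scratching in wild-type cultures (adjusted p = 0.0012) and was lower in uninjured Mmp7-null cultures (-0.41, adjusted p = 0.034; -0.25 with the block, adjusted p = 0.68). Adamtsl1 was lower in scratched Mmp7-null cultures (-0.68, adjusted p = 0.012). This was -0.65 with the block (adjusted p = 0.21) and -0.5 without the 3 arrays that stood apart (adjusted p = 0.18). None of the 36 rose in any comparison. Most of them lay below background, and only 2.27% to 3.29% of all genes rose in the 4 group comparisons, so this count is near that share.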

How the data were processed

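RNA from 16 cultures in 4 groups of 4 was hybridised to Affymetrix arrays. Values are linear intensities that the authors deposited, computed with RMA per the submitters' processing notes; the version and the genome build are not given in the sources used here. It lists 45101 probe sets, more than the array named in the labels carries. Intensities were taken to log2 with no further normalization. The brightest of the probe sets with 1 symbol stood for each of 18193 genes, using the platform's annotation. Background is the 95th percentile of 282 readings of control transcripts absent from an array.

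A group-means model on all 16 arrays (12 residual degrees of freedom) was fitted with limma 3.58.1 (lmFit, eBayes) in R 4.3.3, tested on simulated data, with Benjamini-Hochberg adjustment over all genes and a threshold of 0.05. The number of arrays limits the precision; the median standard error was 0.099 for the 4 group comparisons and 0.14 for the difference of responses.

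Members and lists were chosen with earlier results of these data known. Mmp7 and every called member are given by array, other members by role, and list genes by the largest called changes, at most 3 per list and comparison. Alternatives were the replicate number or the spike-in set as a block, values within a set, only the 8 arrays compared, a filter on dim genes, averaged probe sets, other variance, weighting and scaling settings, other background rules, 3 arrays left out and each array left out. Promoter windows come from RefSeq.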

Additional observations from a re-analysis of the deposited data

Results flagged for a closer look

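For the 25 members above background in at least 1 group, the highest or lowest array was set against the other 3 of its group, which made 100 groups. In 14 of them 1 array lay far from the other 3 by Dixon's test, where chance marks about 1 in 20.

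Timp1 read 4.50 on Mmp7-null uninjured 4 against 3.89 to 3.95 on the others. Adam17 read 9.29 on Mmp7-null scratched 1, against 9.56 to 9.57, and 9.73 on wild-type uninjured 4, against 9.77 on the other 3. Adam10 read 11.07 on Mmp7-null uninjured 3, against 11.21 to 11.24.

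The other 10 were near background. Adamts1 read 4.27 on Mmp7-null scratched 4, against 2.98 to 2.99, and 2.77 on wild-type uninjured 2, against 2.98 to 3.01. Adamts10 read 3.85 on wild-type scratched 3, against 2.83 to 2.88, and 2.95 on Mmp7-null uninjured 2, against 2.85 to 2.86. Reck read 3.66 on wild-type uninjured 1, against 3.00 to 3.09, and 3.46 on Mmp7-null scratched 3, against 2.96 to 3.03. Mmp24 read 3.92 on Mmp7-null scratched 2, against 3.51 to 3.56, and Mmp17 3.66 on Mmp7-null uninjured 1, against 3.38 to 3.40. On Mmp7-null scratched 3, Mmp19 read 3.00, against 2.68 to 2.71, and Mmp16 2.83, against 2.90.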

How the results depend on the processing

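No called member changed direction under any alternative. Members called were 3 for scratch in wild-type, 2 for scratch in Mmp7-null, and 6 for genotype in each state. Counts that moved by more than 1.5 times were as follows, and for none was the cause tested. For scratch in wild-type, 6 were called with array weights and 0 within the Trpn and Phe sets. For scratch in Mmp7-null, 1 was called within the Lys set (Timp1) and 1 within the Phe set (Adam8). For genotype, the spike-in block left 0 in uninjured and 2 in scratched cultures, and the Phe set alone 0 in each. In scratched cultures the 8 arrays compared gave 1 (Timp1) and leaving out the 3 arrays that stood apart gave 3 (Adam17, Adam28 and Timp1). Leaving out each array in turn gave 1 to 5 for scratch in wild-type, 2 in every case for scratch in Mmp7-null, and 3 to 7 for genotype in uninjured and in scratched cultures. The lowest counts came without any 1 uninjured wild-type array or wild-type scratched 2 or 4 (1 called, scratch in wild-type), without any 1 uninjured wild-type array or Mmp7-null uninjured 1 (3 called, genotype in uninjured) and without wild-type scratched 1, 2 or 3 (3 called, genotype in scratched); the 5 came without Mmp7-null scratched 1. For the difference of responses, array weights called 1 (Adam28) and the other alternatives, with each array left out among them, called 0.

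The labels do not say what a replicate number shares. Same-numbered arrays deviated from their group means with correlations of -0.22 to 0.31. With 4 arrays per group these values do not settle whether the numbers pair cultures. With the replicate number as a block, 1 member was called for scratch in wild-type (Adam28), 2 for scratch in Mmp7-null, 5 for genotype in uninjured and 4 in scratched cultures.

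Between 20 and 25 members were above background under the other 5 background settings, where 25 were reported; the 5 that left were Adam22, Adamts1, Adamts10, Mmp16 and Mmp19. Signal near background limits 13 members fully and these 5 in part. Mmp13, Mmp17, Mmp24, Reck and Adamts5 also had means within 1 log2 unit of it.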
